A study of Mus musculus with 3 samples.

Results

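The 9 genes described here encode the D cyclins (Ccnd1, Ccnd2, Ccnd3), the kinases they activate (Cdk4, Cdk6) and 4 inhibitors of these kinases (Cdkn1a, Cdkn1b, Cdkn2c, Cdkn2d). They were chosen by gene symbol, with earlier results of these data known, and each matched 1 of the 32285 genes listed in the count tables. Their levels were followed across the cell types of mouse bone marrow in 3 libraries of 3' single-cell RNA sequencing, 2 of genotype Ep300-Znf384-V5-HA (fusion, replicates 1 and 2) and 1 labelled Wild type. The series title places the work in the study of ZNF384 fusion oncoproteins and lineage aberrancy in acute leukemia. All libraries came from male mice aged 6 weeks, and each mixed 5000 live whole-marrow cells with 5000 live lineage-negative ones, red cells having been lysed. The label names a fusion of Ep300, a histone acetyltransferase gene, with Znf384, a zinc-finger transcription factor gene, carrying V5 and HA tags. The promoter that drives the allele and the number of animals behind a library are not given in the sources used here. The spread between libraries may be technical. With 1 wild-type library, genotype and anything particular to that library cannot be told apart.

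D cyclins are made in response to growth signals and bind Cdk4 or Cdk6, and the active pair phosphorylates the retinoblastoma protein, which frees E2F transcription factors and lets a cell enter S phase. Cdkn2c and Cdkn2d encode Ink4 inhibitors, which bind Cdk4 and Cdk6 directly. Cdkn1a, a target of p53, and Cdkn1b encode Cip/Kip inhibitors, which act mainly on Cdk2 complexes and can also sit on D cyclin complexes. In marrow the D cyclins overlap in function, Cdk6 is the kinase most tied to stem cells and blood progenitors, and inhibitors of both families accompany the exit from division as cells mature.

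Fusion replicates 1 and 2 held 9057 and 8122 barcodes with 97192347 and 111836603 UMIs, against 9354 barcodes with 93262028 UMIs in wild type. A UMI marks 1 captured transcript molecule. After filtering, 7313 and 6895 fusion cells and 7431 wild-type cells were kept, with medians of 7360, 10008 and 7430 UMIs. Pairs of libraries shared 19 to 23 barcodes. The cells formed 26 clusters, which were joined by marker genes into 14 classes. Cluster names rest on marker genes, so a class holds cells that resemble the named type. A cluster that carried markers of both plasmacytoid dendritic cells and monocytes was left unnamed and is called the Irf8 Runx2 cluster after its leading genes, among which Ccnd1 also stood. Over all cells Ep300 had 69.2 and 52.95 plain CPM (counts per 1000000 UMIs of a library) in fusion against 85.8 in wild type, and Zfp384, the mouse gene for ZNF384, 26.5 and 19.5 against 15.6. Plasmacytoid dendritic cells (30 and 47 fusion cells, 95 wild-type cells) were described without a test, and the other 13 classes had at least 50 cells per library.

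Each D cyclin had its own territory in the marrow. The levels in this and the next 3 paragraphs are plain CPM, each class summed per library, with the order of classes set by the mean of the 3 libraries. Ccnd1 (ENSMUSG00000070348, GRCm38 chromosome 7, 144929931 to 144939925, minus strand) was a transcript of few classes. Plasmacytoid dendritic cells had 695.8 and 924.9 CPM in fusion and 924.8 in wild type. The Irf8 Runx2 cluster came next with 64.3 and 82.9 CPM in fusion and 159 in wild type. The next 3 were stem, multipotent and lymphoid progenitors, megakaryocytes and granulocyte-monocyte progenitors, with ranges that overlapped, all between 8.11 and 38.7 CPM. The monocyte and dendritic cell class stood at 9.31 and 9.42 CPM in fusion and 8.93 in wild type, below every value of the class above it, and no library of any remaining class exceeded 7.81.

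Ccnd2 (ENSMUSG00000000184, chromosome 6, 127125162 to 127152193, minus strand) is a cyclin induced by cytokine and antigen receptor signals. Its highest levels lay in megakaryocytes, in T, NK and innate lymphoid cells, and in stem, multipotent and lymphoid progenitors. Megakaryocytes led with 483 and 577 CPM in fusion and 363 in wild type. T, NK and innate lymphoid cells had 368 and 480 CPM in fusion and 410 in wild type. Values in stem, multipotent and lymphoid progenitors were 378 and 483 CPM in fusion and 383 in wild type, so the ranges of these 3 classes overlapped. The only breaks in the order lay below basophils and mast cells, whose lowest library (143) exceeded every library of plasmacytoid dendritic cells, and above immature neutrophils, the lowest class at 5.46 and 5.41 CPM in fusion and 8.08 in wild type. Ccnd3 (ENSMUSG00000034165, chromosome 17, 47505051 to 47599691, plus strand), the cyclin linked to pre-B cell and late erythroid divisions, had another order. Pro-B cells were highest with 629 and 748 CPM in fusion and 773 in wild type, erythroblasts next with 623 and 562 against 507, and mature and immature neutrophils followed. Erythroid progenitors were lowest with 79.6 and 80.2 CPM in fusion and 64.9 in wild type, below every library of the class above them.

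The kinases were progenitor transcripts and low in neutrophils. Cdk4 (ENSMUSG00000006728, chromosome 10, 127063534 to 127067920, plus strand) had 397 and 359 CPM in fusion erythroblasts and 332 in wild-type erythroblasts, with overlapping ranges down to stem, multipotent and lymphoid progenitors at 290 and 281 in fusion and 270.02 in wild type. Its 2 lowest classes did not overlap each other: immature neutrophils had 27.8 and 26.3 CPM in fusion and 22.7 in wild type, and mature neutrophils 22.6 and 9.85 in fusion and 19.6 in wild type. Cdk6 (ENSMUSG00000040274, chromosome 5, 3341485 to 3531008, plus strand) was highest in stem, multipotent and lymphoid progenitors with 608 and 664 CPM in fusion and 705 in wild type, and in megakaryocytes with 653 and 566 in fusion and 553 in wild type. These ranges overlapped and lay above all other classes. Mature neutrophils were lowest again, with 30.4 and 20.3 CPM in fusion and 46.5 in wild type.

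The inhibitors had their highest levels in different classes. Cdkn1b (ENSMUSG00000003031, chromosome 6, 134920401 to 134925513, plus strand) was the flattest of the 9 genes: mature neutrophils led with 218 and 160 CPM in fusion and 202 in wild type, granulocyte-monocyte progenitors came last with 52.8 and 38.1 in fusion and 36.5 in wild type, and 12 of the 13 neighbouring pairs of classes overlapped. Cdkn2d (ENSMUSG00000096472, chromosome 9, 21288410 to 21291407, minus strand) was also highest in mature neutrophils, with 248 and 281 CPM in fusion and 208 in wild type, and lowest in erythroid progenitors, with 22.1 and 21.2 in fusion and 17.8 in wild type. Cdkn2c (ENSMUSG00000028551, chromosome 4, 109660876 to 109667189, minus strand) peaked in pro-B cells with 137 and 102 CPM in fusion and 77.4 in wild type, above every library of the next class, and was lowest in mature neutrophils with 3.48 and 2.14 in fusion and 1.78 in wild type. Cdkn1a (ENSMUSG00000023067, chromosome 17, 29090976 to 29100727, plus strand) was highest in stem, multipotent and lymphoid progenitors with 47.6 and 67.1 CPM in fusion and 91.0 in wild type. No Cdkn1a UMI was seen in plasmacytoid dendritic cells of any library.

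**Figure D1:**
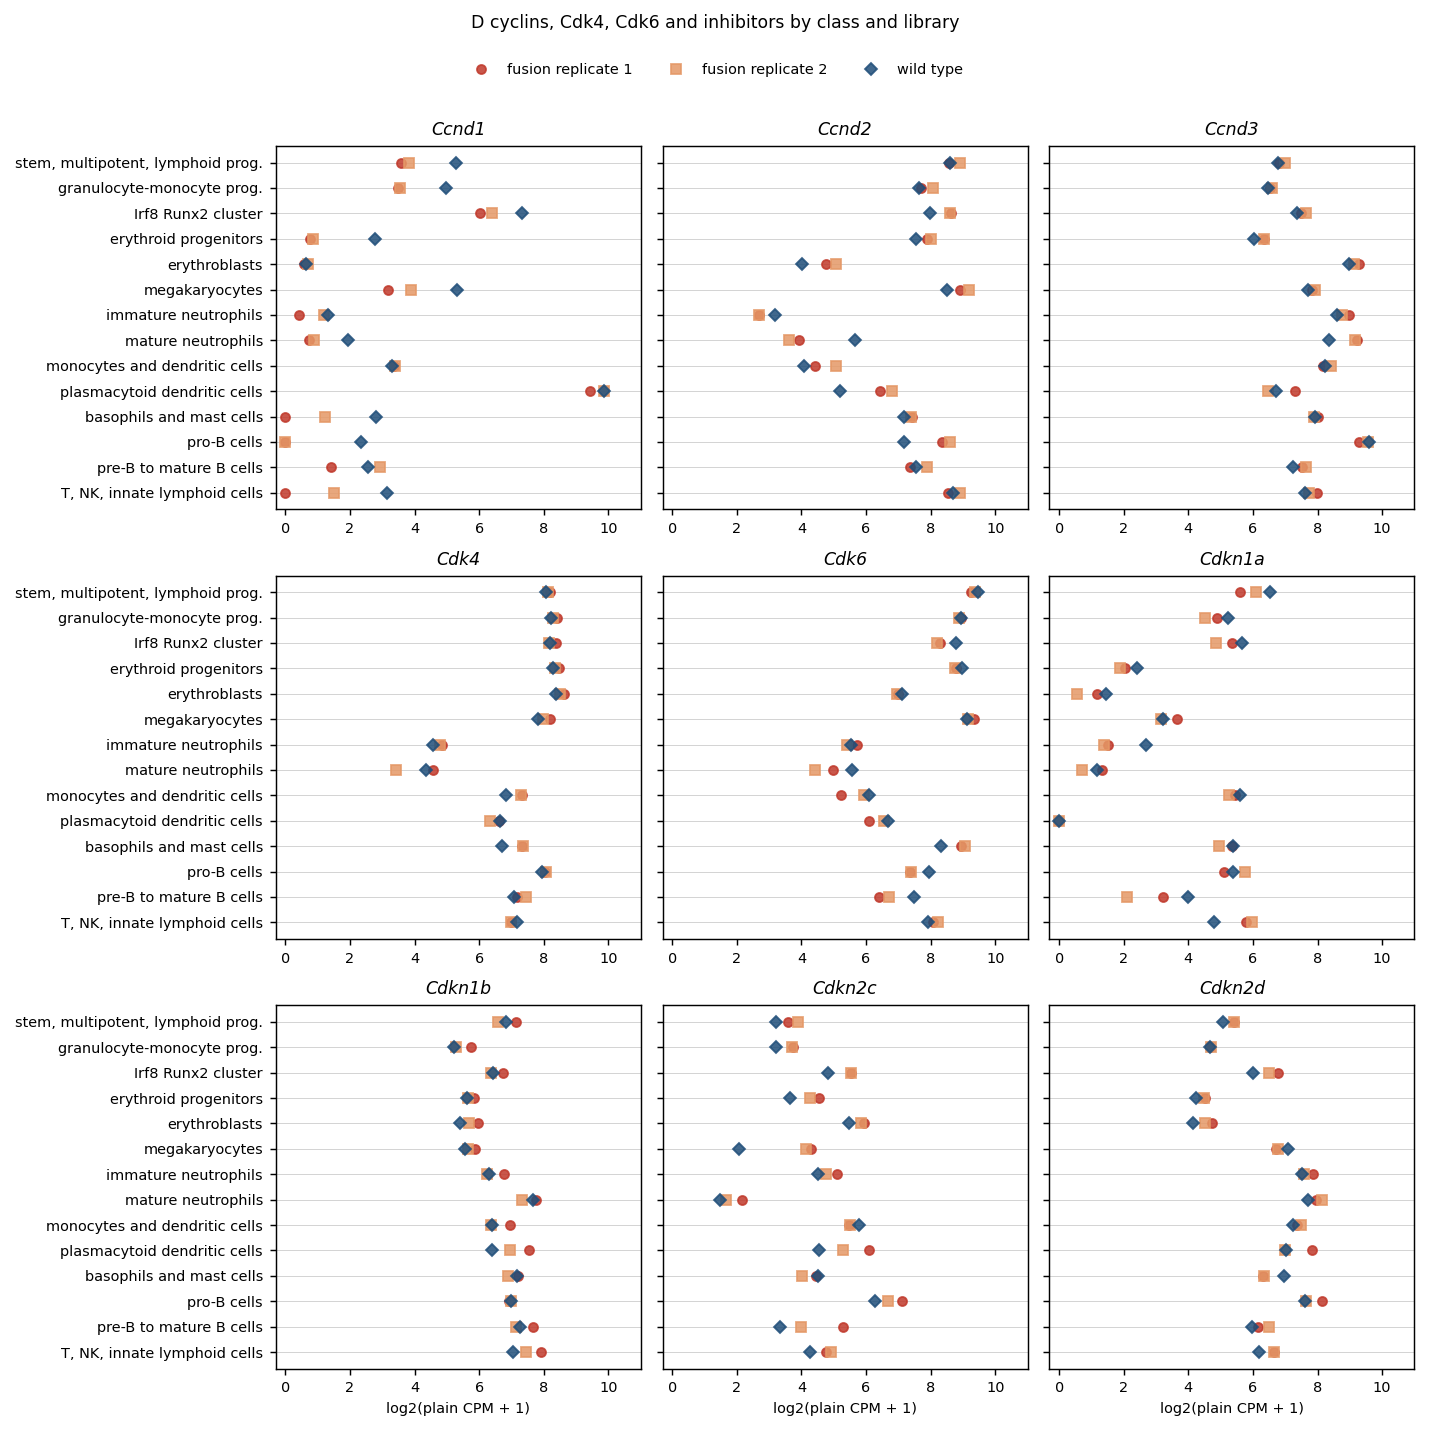
Level of each gene, as log2(plain CPM + 1), on the horizontal axis for each of the 14 classes down the page, with a red circle and an orange square for fusion replicates 1 and 2 and a blue diamond for wild type. Ccnd1 is low outside a few classes and reaches 924.9 plain CPM in plasmacytoid dendritic cells, while Cdkn1b varies least between classes.

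The genotype comparison asked which of these genes differ between fusion and wild-type cells of the same class. A gene and class pair was called where the edgeR quasi-likelihood test gave a Benjamini-Hochberg adjusted p under 0.05 over all genes of the class. Of 117 pairs, 110 had enough counts to be tested, and 13 were called, 3 higher and 10 lower in fusion. That is 11.8% of the tested pairs, where 2.31% of all gene and class pairs were called. The directions ran the same way in the background, with 0.718% of all pairs higher and 1.59% lower. The calls fell on 7 genes in 10 classes, and Cdk4 and Cdkn1b had none. Unadjusted edgeR p was under 0.05 in 37 pairs. Values this small were common among all genes too, and their number varied by class. The fewest were 468 of 7538 genes, for the T, NK and innate lymphoid class. The most were 1967 of 10079 genes, for basophils and mast cells. DESeq2, run on the same sums, called 3 pairs: Ccnd1 in erythroid progenitors and in granulocyte-monocyte progenitors, and Ccnd2 in mature neutrophils. The share of all genes that DESeq2 called is not given here. Values from here on are normalized CPM, scaled within a class by the trimmed mean of M-values, and each log2 fold change is that of fusion over wild type, given with its standard error.

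**Figure D2:**
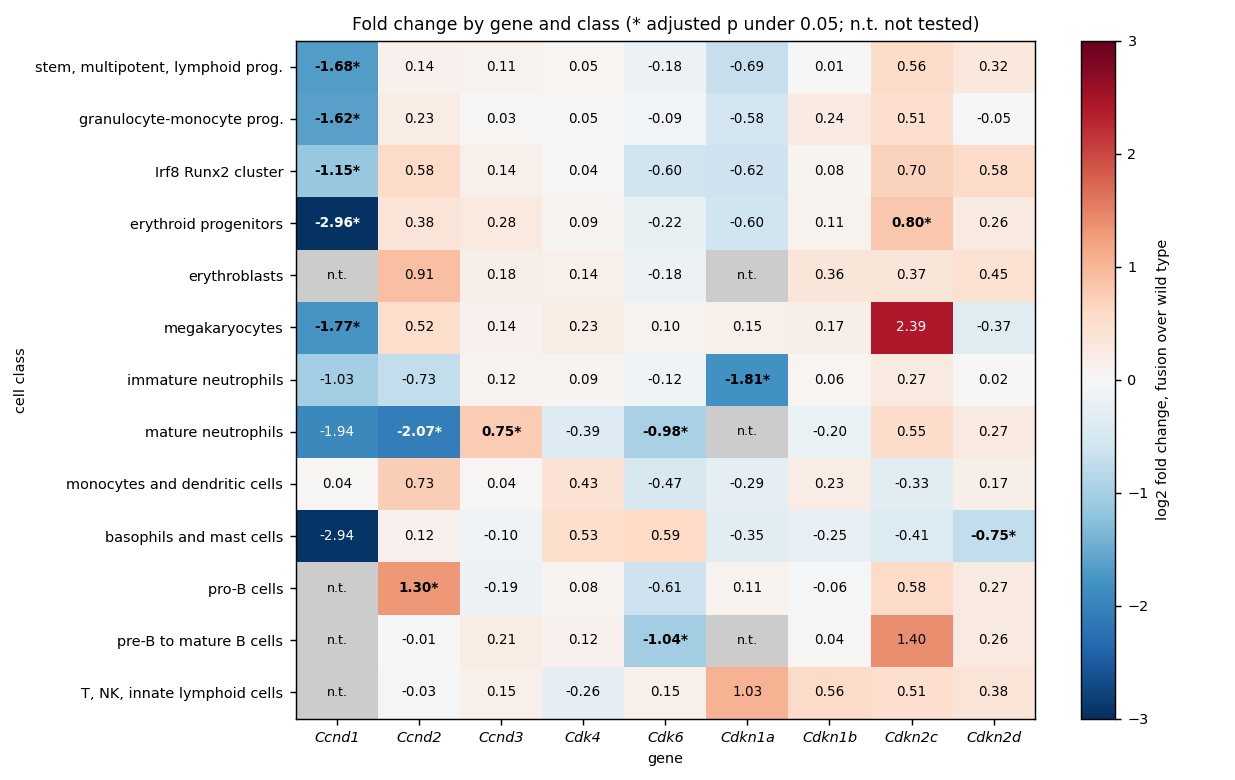
Log2 fold change, fusion over wild type, for each gene (columns) in each tested class (rows), red for higher and blue for lower in fusion, with an asterisk on the called pairs and n.t. where counts were too low to test. Ccnd1 holds 5 of the 10 lower calls, and the 3 higher calls are Ccnd2 in pro-B cells, Ccnd3 in mature neutrophils and Cdkn2c in erythroid progenitors.

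Ccnd1 was lower in fusion in 5 of the 9 classes in which it was tested, with a median log2 fold change over the 9 of -1.68, and both fusion libraries lay below wild type in 8 of them. Granulocyte-monocyte progenitors, the Mpo and Elane expressing precursors of neutrophils and monocytes, had 9.65 and 10.9 normalized CPM in fusion against 31.6 in wild type. Both fusion libraries lay far below wild type and close to each other. The log2 fold change was -1.62 ± 0.16 (edgeR adjusted p = 0.00791), in a class where 0.193% of all genes were called lower. In stem, multipotent and lymphoid progenitors fusion had 10.6 and 13.4 normalized CPM against 38.9 in wild type, a log2 fold change of -1.68 ± 0.22 (edgeR adjusted p = 0.00199, background 1.47% lower). Megakaryocytes, the platelet precursors, had 7.80 and 14.4 normalized CPM in fusion against 39.5 in wild type (-1.77 ± 0.33, edgeR adjusted p = 0.0245, background 0.56% lower). The megakaryocyte call was lost in 6 of 11 alternatives, with a log2 fold change of -1.66 when doublets were kept (edgeR adjusted p = 0.17). In each of these classes both fusion values lay below wild type, and in megakaryocytes they were farther from each other than in the other two.

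The Irf8 Runx2 cluster had 61.5 and 85.2 normalized CPM of Ccnd1 in fusion against 163 in wild type, a log2 fold change of -1.15 ± 0.19 (edgeR adjusted p = 0.000225, background 0.714% lower). With a stricter cell filter the change was -0.68 (edgeR adjusted p = 0.21). After thinning each cell to 2000 UMIs, a Ccnd1 UMI was seen in 13.3% and 15.5% of fusion cells of this cluster (exact 95% binomial intervals 8.95 to 18.8% and 10.998 to 21.01%) against 28.8% of wild-type cells (24.99 to 32.9%). Before thinning the shares were 32.0% and 46.1% against 73.2%. In plasmacytoid dendritic cells 76.7% and 76.6% of fusion cells and 71.6% of wild-type cells held a Ccnd1 UMI at the same depth, with intervals that all overlapped. The difference in response between these classes was not tested, since plasmacytoid dendritic cells fell under the minimum of 50 cells per library in fusion.

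Erythroid progenitors also passed the test for Ccnd1, with 0.683 and 0.840 normalized CPM in fusion against 5.93 in wild type (-2.96 ± 0.28, edgeR adjusted p = 0.000619, background 0.905% lower). With no gene filter the call was just missed (edgeR adjusted p = 0.0554). At 2000 UMIs per cell, 0.0492% and 0.154% of fusion erythroid progenitors (0.00125 to 0.274% and 0.0317 to 0.448%) and 1.41% of wild-type ones (0.752 to 2.40%) held a Ccnd1 UMI, and before thinning 1.61% and 1.96% against 8.46%. Classes low in Ccnd1 are given beside it, since free RNA can give UMIs in cells that lack a transcript. Over all kept cells Ccnd1 had 5.63 and 8.60 plain CPM in fusion against 33.6 in wild type, the same direction. Erythroblasts, the next stage, had 0.497 and 0.610 plain CPM in fusion and 0.569 in wild type, from 2, 4 and 2 UMIs, and before thinning 1.22% and 1.59% of fusion cells and 1.43% of wild-type cells held a UMI. Immature neutrophils had 0.328 and 1.27 plain CPM in fusion and 1.49 in wild type, and at 2000 UMIs 0.0839% and 0.0990% of fusion cells and 0.546% of wild-type cells (0.201 to 1.19%) held a UMI. T, NK and innate lymphoid cells reached 1 UMI at most in a fusion library and 7.81 plain CPM in wild type, from 12 UMIs, with 0.855% of wild-type cells at 2000 UMIs (0.104 to 3.05%). Median depth was 23020 and 23110 UMIs in fusion erythroid progenitors and 20829 in wild-type ones, 25418 and 26476 in fusion erythroblasts and 25538 in wild-type ones, and 4479 in wild-type T, NK and innate lymphoid cells. The fusion level of erythroid progenitors was thus near that of erythroblasts, while the wild-type level lay above erythroblasts and neutrophils and below T, NK and innate lymphoid cells, and the part of free RNA in it was not tested. In the monocyte and dendritic cell class Ccnd1 had 9.14 and 9.53 normalized CPM in fusion against 9.08 in wild type (0.04 ± 0.42, edgeR adjusted p = 0.99), and in basophils and mast cells 0 and 1.34 against 6.32 (edgeR adjusted p = 0.0623).

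**Figure D3:**
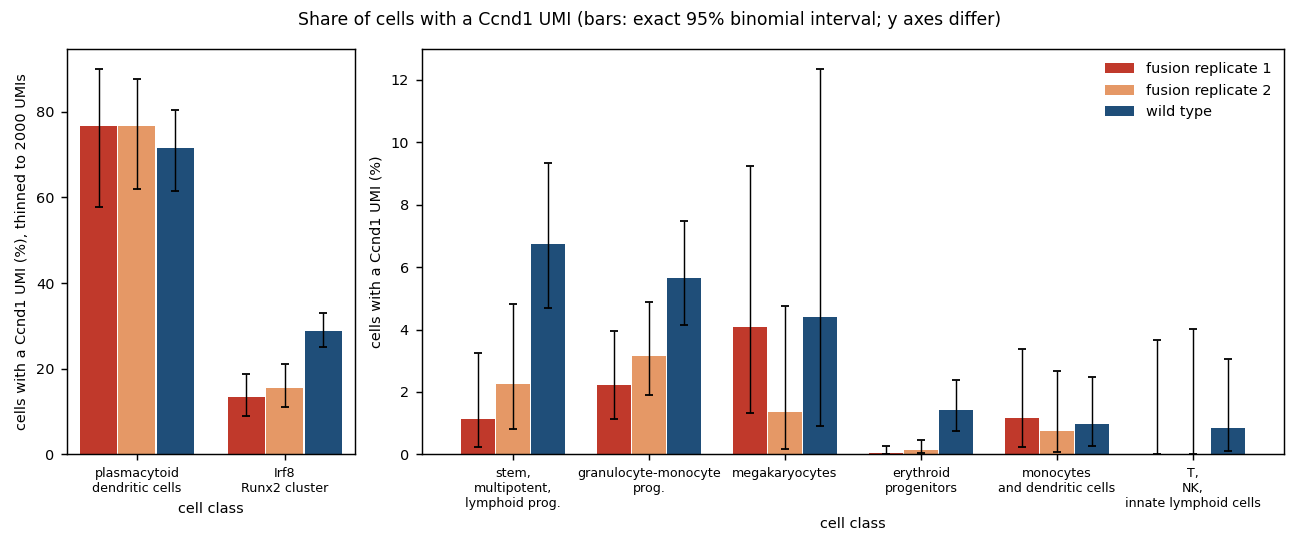
Percent of cells with at least 1 Ccnd1 UMI after each cell was thinned to 2000 UMIs, by class, with fusion replicates 1 and 2 in red and orange and wild type in blue, bars for exact 95% binomial intervals of counting error, and separate vertical scales for the 2 panels. Wild-type cells of the Irf8 Runx2 cluster reach 28.8% against 13.3% and 15.5% in fusion, and plasmacytoid dendritic cells lie above 70% in every library.

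Cell makeup moved with some of these differences. In stem, multipotent and lymphoid progenitors the summed level of the stem and multipotent marker list was 1891 and 1714 plain CPM in fusion against 1314 in wild type, and that of the lymphoid progenitor list 2501 and 2378 against 4093. When cells were clustered without the called genes, the only cluster given that class name held 1500 cells, led by Dntt, Irf8, Flt3 and Runx2. It thus was not the same set of cells, and Ccnd1 in it changed by -0.90 (edgeR adjusted p = 0.16). In the Irf8 Runx2 cluster the granulocyte-monocyte list summed to 2157 and 2214 plain CPM in fusion against 3591 in wild type, and the plasmacytoid dendritic cell list to 3353 and 3031 against 2309. The part of these shifts in the Ccnd1 values was not tested. In granulocyte-monocyte progenitors the plasmacytoid list hardly differed, at 617 and 564 plain CPM in fusion and 573 in wild type, with 3 and 2 of its 9 genes at 0 in fusion and 2 in wild type. Siglech, the defining surface marker of plasmacytoid dendritic cells, stood there at 0 and 0.0767 plain CPM in fusion and 0.367 in wild type, against 1759 to 2763 in plasmacytoid dendritic cells themselves. In the Irf8 Runx2 cluster Siglech had only 46.9 and 41.6 in fusion and 18.5 in wild type. Gria3, a leading gene of that cluster, did differ in granulocyte-monocyte progenitors, at 30.6 and 36.3 plain CPM in fusion and 97.0 in wild type. In the cluster itself Gria3 had 144 and 163 against 230. The difference was not particular to these classes. Both fusion libraries lay below wild type in every class but pre-B to mature B cells, at 0 and 4.93 against 2.81. The monocyte and dendritic cell class had 40.4 and 41.1 plain CPM of Gria3 in fusion against 88.6 in wild type. The part of cells like that cluster in the granulocyte-monocyte values was not tested. In megakaryocytes the plasmacytoid dendritic cell list summed to 218 and 185 in fusion and 215 in wild type.

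Ccnd2 in mature neutrophils had the smallest p of all 110 pairs. Mature neutrophils had 12.8 and 11.8 normalized CPM of Ccnd2 in fusion against 51.9 in wild type, a log2 fold change of -2.07 ± 0.26 (edgeR adjusted p = 6.4e-14, background 5.69% lower). The call held under each of the 12 alternatives with a test, with log2 fold changes of -2.35 to -1.66 over these and the 2 single-library versions. At 2000 UMIs per cell, 2.21% and 1.42% of fusion cells held a Ccnd2 UMI (intervals 1.42 to 3.26% and 0.829 to 2.26%) against 6.28% of wild-type cells (4.85 to 7.98%). Immature neutrophils, the cells before them, had 4.83 and 5.68 normalized CPM in fusion against 8.72 in wild type, which was not called (-0.73 ± 0.26, edgeR adjusted p = 0.18).

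Ccnd3 went the other way in the same cells. Mature neutrophils had 541 and 605 normalized CPM of Ccnd3 in fusion against 340 in wild type, a log2 fold change of 0.75 ± 0.23 (edgeR adjusted p = 0.0151, background 3.28% higher). Immature neutrophils had 447 and 452 in fusion against 415 in wild type (0.12 ± 0.17, edgeR adjusted p = 0.81). Different clusters held the mature neutrophils of the 2 genotypes: of 1868 and 1453 fusion cells 10 and 10 lay in the cluster that held 1357 of 1364 wild-type cells. The immature neutrophil marker list summed to 22135 and 22743 plain CPM in fusion mature neutrophils against 12257 in wild-type ones, and its part in the D cyclin values was not tested. Clustered without called genes, Ccnd3 changed by 0.61 (edgeR adjusted p = 0.074).

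In pro-B cells, the earliest committed B cells and defined here by Igll1 and Vpreb1, Ccnd2 was higher in fusion. They had 320 and 401 normalized CPM in fusion against 147 in wild type, a log2 fold change of 1.30 ± 0.26 (edgeR adjusted p = 0.000215, background 0.352% higher). Both fusion libraries were more than 2 times the wild-type value. At 2000 UMIs per cell 29.6% and 30.1% of fusion pro-B cells held a Ccnd2 UMI (intervals 17.98 to 43.6% and 19.9 to 42.0%) against 14.6% of wild-type cells (9.26 to 21.4%). Ccnd3 in the same cells had 618 and 779 normalized CPM in fusion against 797 in wild type and was not called (-0.19 ± 0.27). The marker lists of pro-B and of pre-B to mature B cells summed to 7856 and 7508, and 5015 and 4859 plain CPM, in fusion pro-B cells, against 6281 and 4785 in wild-type ones. The class was small, with 55 and 76 fusion cells and 151 wild-type cells, and at Leiden resolution 0.5 the change was 0.69 (edgeR adjusted p = 0.12).

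The makeup of D cyclin UMIs puts these changes side by side. Each library's UMIs of the 3 cyclins were summed per class, and shares are compared for 1 cyclin across libraries because capture can differ between transcripts. In mature neutrophils Ccnd2 made up 2.30% and 1.92% of D cyclin UMIs in fusion and 13.1% in wild type, and in pro-B cells 34.1% and 34.0% in fusion and 15.5% in wild type. Ccnd1 made up 10.1% and 12.4% in fusion and 27.6% in wild type in the Irf8 Runx2 cluster, and 3.29% and 2.82% against 9.77% in granulocyte-monocyte progenitors. The change of main cyclin along the red cell line was seen in every library. Ccnd2 made up 74.8% and 76.0% in fusion and 72.6% in wild-type erythroid progenitors, and Ccnd3 95.9% and 94.4% in fusion and 97.0% in wild-type erythroblasts. Plasmacytoid dendritic cells alone among the classes had Ccnd1 as the main D cyclin in every library, at 74.1% and 82.4% in fusion and 86.9% in wild type.

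**Figure D4:**
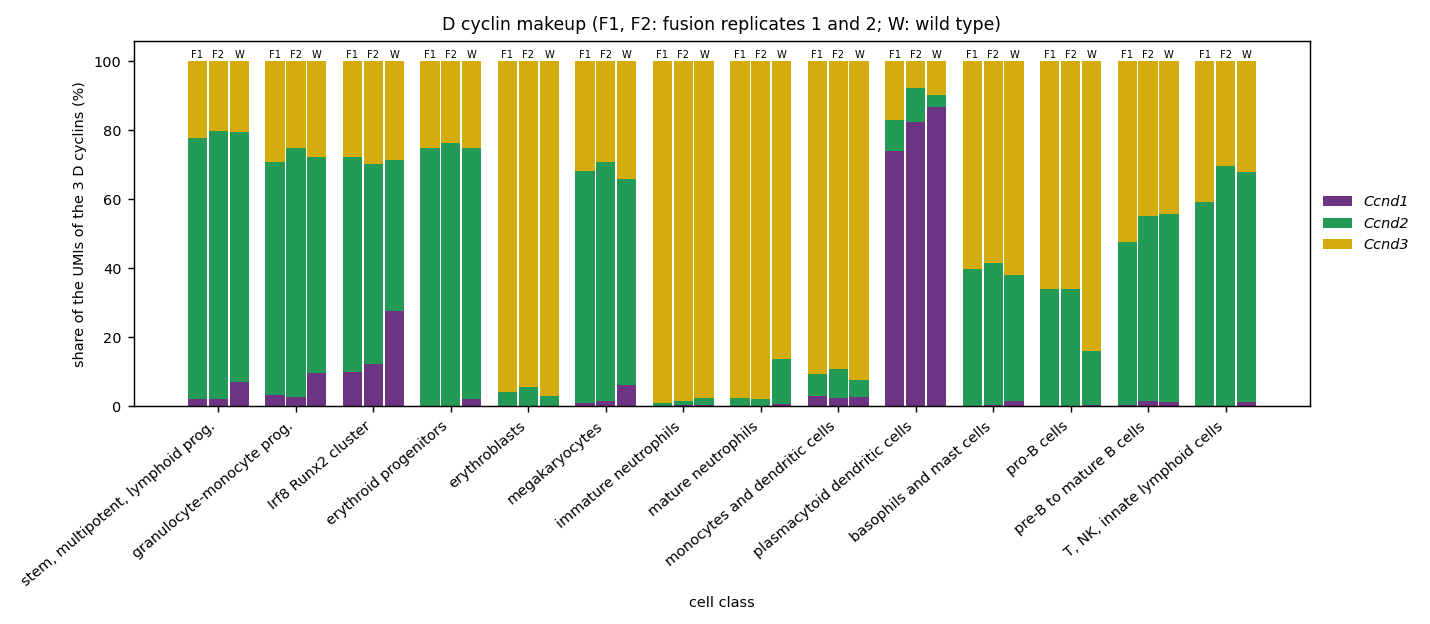
Share of the UMIs of Ccnd1 (purple), Ccnd2 (green) and Ccnd3 (yellow) in their sum, in percent on the vertical axis, for fusion replicates 1 and 2 (F1, F2) and wild type (W) of each class. Ccnd2 fills 13.1% of the wild-type bar in mature neutrophils and 2.30% and 1.92% of the fusion bars, and pro-B cells show the opposite order.

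Cdk6 was called lower in fusion in 2 classes, mature neutrophils and pre-B to mature B cells. Mature neutrophils had 27.5 and 21.6 normalized CPM in fusion against 48.7 in wild type, a log2 fold change of -0.98 ± 0.24 (edgeR adjusted p = 0.001003). Pre-B to mature B cells had 80.9 and 106.5 in fusion against 193 in wild type (-1.04 ± 0.26, edgeR adjusted p = 0.00745, background 0.964% lower). Both fusion libraries were below wild type in 10 of the 13 classes, and above it in 3. The B cell call was lost in 8 of 11 alternatives, with a log2 fold change of -0.41 when doublets were kept (edgeR adjusted p = 0.85). In that class the pre-B to mature B marker list summed to 13999 and 16224 plain CPM in fusion against 25332 in wild type and the pro-B list to 7603 and 7753 against 6086, and their part was not tested. Stem, multipotent and lymphoid progenitors had 591 and 677 normalized CPM of Cdk6 in fusion against 718 in wild type (-0.18 ± 0.19). Larger changes that were not called went both ways. The Irf8 Runx2 cluster had 296 and 301 against 453 (-0.60 ± 0.20, edgeR adjusted p = 0.21). Pro-B cells had 159 and 175 against 256 (-0.61 ± 0.24, edgeR adjusted p = 0.38). Basophils and mast cells had 468 and 536 against 333 (0.59 ± 0.21, edgeR adjusted p = 0.10).

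Cdk4 was called in no class, and its log2 fold changes ran from -0.39 to 0.53. The largest under the rule for named genes was in basophils and mast cells, with 151 and 165 normalized CPM in fusion against 109 in wild type (0.53 ± 0.19, edgeR adjusted p = 0.11). In granulocyte-monocyte progenitors it had 318 and 317 in fusion against 308 in wild type (0.05 ± 0.16).

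Among the Cip/Kip inhibitors, Cdkn1a was lower in fusion immature neutrophils, at 1.64 and 1.67 normalized CPM against 5.85 in wild type (-1.81 ± 0.36, edgeR adjusted p = 0.0144, background 2.37% lower). These are low levels, and 0.503% and 0.198% of fusion cells held a UMI at 2000 UMIs per cell against 1.002% of wild-type cells, with overlapping intervals (0.185 to 1.09%, 0.0240 to 0.713% and 0.501 to 1.79%). The fusion values were close to those of the lowest classes, such as mature neutrophils with 1.52 and 0.642 plain CPM in fusion and 1.27 in wild type, and the wild-type value lay above them. Over all kept cells Cdkn1a had 10.2 and 10.2 plain CPM in fusion against 26.1 in wild type, the same direction. The part of free RNA in the immature neutrophil values was not tested. In the 1 immature neutrophil cluster that both genotypes shared (500 and 424 fusion cells, 361 wild-type cells), an alternative added after the data were seen, Cdkn1a had 1.99 and 2.52 normalized CPM in fusion against 9.51 in wild type (-2.08, edgeR adjusted p = 0.0450). The largest change at 20 CPM or more was in T, NK and innate lymphoid cells and was not called: 52.6 and 64.1 in fusion against 28.5 in wild type (1.03 ± 0.33, edgeR adjusted p = 0.43). Across the 10 classes tested, both fusion libraries lay below wild type in 7 and above it in 1.

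Cdkn1b was called in no class. Its largest difference was in T, NK and innate lymphoid cells, at 234 and 179 normalized CPM in fusion against 139 in wild type (0.56 ± 0.28, edgeR adjusted p = 0.84). In 6 of 13 classes the 2 fusion libraries lay on different sides of wild type, the most of any of the 9 genes.

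Among the Ink4 inhibitors, Cdkn2c was higher in fusion erythroid progenitors, with 21.5 and 18.4 normalized CPM against 11.5 in wild type (0.80 ± 0.15, edgeR adjusted p = 0.0248, background 0.35% higher). At 2000 UMIs per cell 3.35% and 3.69% of fusion cells held a UMI (2.61 to 4.22% and 2.90 to 4.62%) against 1.41% of wild-type cells (0.752 to 2.40%). Both fusion libraries lay above wild type in 11 of 13 classes and below it in 2, with a median log2 fold change over the 13 of 0.55. Megakaryocytes had 18.03 and 17.2 normalized CPM in fusion against 3.29 in wild type and missed the threshold (2.39 ± 0.51, edgeR adjusted p = 0.0587), as did the Irf8 Runx2 cluster with 43.1 and 47.0 against 27.8 (0.70 ± 0.19, edgeR adjusted p = 0.0509). The wild-type megakaryocyte value came from 5 UMIs in 75 cells. Pre-B to mature B cells, the class the rule for named genes gave, had 36.5 and 15.2 against 9.82 (1.40 ± 0.60, edgeR adjusted p = 0.48). The erythroid call was lost in 9 of 12 alternatives, with log2 fold changes of 0.69 to 1.53 in those 9.

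The promoter of Cdkn2c is shown because Cdkn2c followed 2 cell cycle genes most closely over all libraries and classes, Esco2 and Ccnf. E2F sites were searched on both strands under the spelling TTCCCGC and under 3 variants, the first being TTCGCGC, the second being TTGCCGC and the third being TTGGCGC, in RefSeq promoter windows of GRCm38.p6, 250 bases before to 50 after a start. Windows were at hand for 7 of the 9 genes, 10 windows in all, and 1 window held a match, as did 9.57% of 32851 windows of the same length. It is that of Cdkn2c at chr4:109666707-109667006 on the minus strand, given 5′ to 3′ with the match in capitals, 25 bases before the start.
Cdkn2c: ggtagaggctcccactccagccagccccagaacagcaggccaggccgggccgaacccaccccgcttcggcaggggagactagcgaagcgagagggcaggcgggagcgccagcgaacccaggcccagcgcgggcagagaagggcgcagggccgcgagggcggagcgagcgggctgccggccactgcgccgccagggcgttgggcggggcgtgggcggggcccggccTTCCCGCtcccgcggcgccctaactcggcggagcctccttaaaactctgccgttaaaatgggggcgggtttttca
The other Cdkn2c window and the windows of Ccnd3, Cdk4, Cdk6, Cdkn1a, Cdkn1b and Cdkn2d held none of these letters. A window of Ccnf, searched as well, held no match either.

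Cdkn2d was lower in fusion basophils and mast cells, the Mcpt8 and Prss34 expressing class, with 74.8 and 81.3 normalized CPM against 132 in wild type (-0.75 ± 0.18, edgeR adjusted p = 0.0120, background 4.66% lower). In 10 of the 13 classes both fusion libraries lay above wild type, none called, as in the Irf8 Runx2 cluster with 103 and 91.6 against 65.1 (0.58 ± 0.18, edgeR adjusted p = 0.14). The call was lost in 4 of 12 alternatives, at -0.50 with equal cells per library (edgeR adjusted p = 0.20) and -0.40 in cells with few cycle UMIs (edgeR adjusted p = 0.55), and with doublets kept (edgeR adjusted p = 0.0517) and with DESeq2 (adjusted p = 0.9999). The basophil class joined 2 clusters in different proportions, 131 and 201 fusion cells against 261 wild-type cells in an Mcpt8 and Prss34 rich cluster, and 59 and 61 against 335 in a Ccl3 and Cd200r3 rich one. In these clusters, an alternative added after the data were seen, Cdkn2d had 66.8 and 75.5 against 136 in the first (-0.93, edgeR adjusted p = 0.0205) and 122 and 135 against 124 in the second (0.04, edgeR adjusted p = 0.99). In the second, Ccnd3 had 495 and 477 in fusion against 249 in wild type (0.96, edgeR adjusted p = 0.021). The basophil and mast cell marker list summed to 26825 and 31175 plain CPM in fusion against 57266 in wild type, and its part was not tested.

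**Figure D5:**
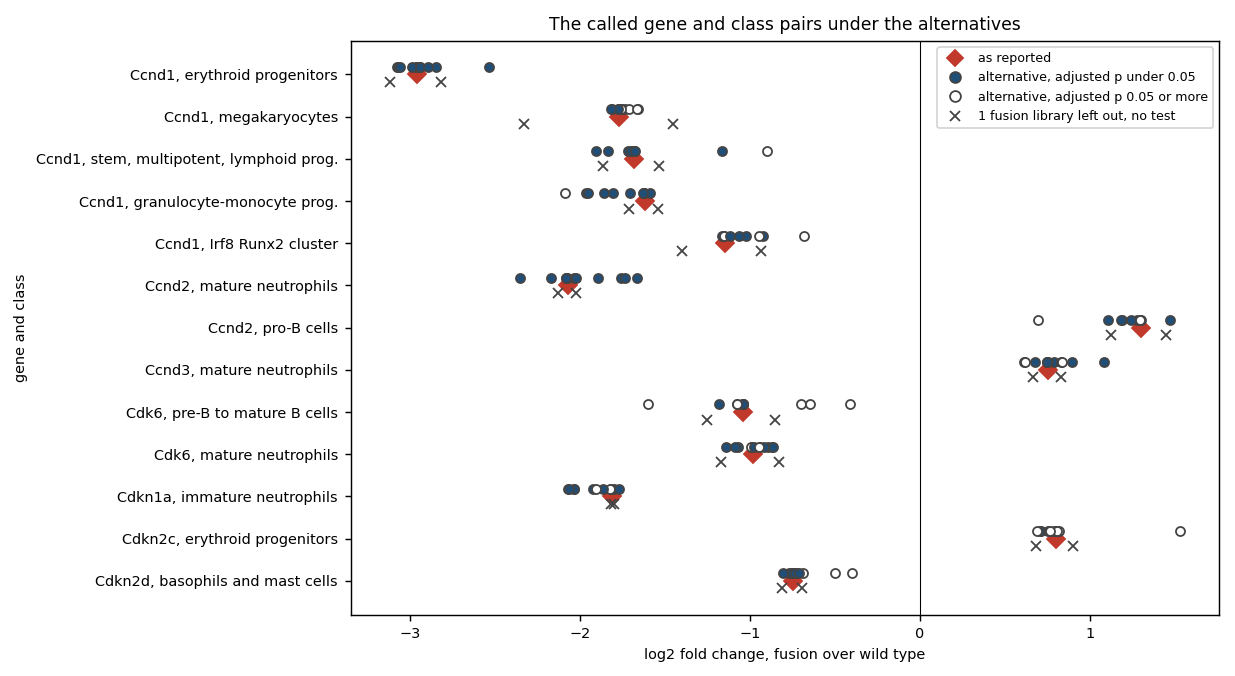
Log2 fold change, fusion over wild type, of the 13 called pairs (rows) as reported (red diamonds), under each alternative with a test (circles, filled where the edgeR or DESeq2 adjusted p was under 0.05) and with 1 fusion library left out (crosses, no test). Single clusters left aside, no pair crosses 0, and Ccnd2 in mature neutrophils lies between -2.35 and -1.66 throughout.

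The genotype effect of most of these genes differed between classes. In 1 edgeR model of all 13 classes with library, class and their interaction with genotype, 7 of the 9 genes had an interaction at adjusted p under 0.05, where 17.1% of 13588 genes did. The adjusted p was 9.31e-16 for Ccnd2, 4.90e-08 for Cdk6, 3.61e-06 for Ccnd1, 4.69e-06 for Cdkn2c, 6.00e-05 for Cdkn2d, 0.00104 for Cdkn1a and 0.00640 for Ccnd3. It was 0.0795 for Cdkn1b and 0.28 for Cdk4. Without the 2 neutrophil classes Ccnd3 was at 0.19 and Cdkn1b at 0.0158, so that Ccnd3 no longer passed and Cdkn1b did. The classes of a library share its preparation and are not independent samples.

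The genes around the D cyclin step were counted from 8 lists, 1222 gene and class pairs tested, of which 28 were called. That is 2.29%, near the 2.31% of all gene and class pairs. Basophils and mast cells held 18 of them. There 11 of 26 G2 and M phase genes were lower in fusion and none higher, where 4.66% of all genes were called lower, with a median log2 fold change over the list of -0.64 against 0.01 for all genes. Of 22 S phase genes 1 was lower and none higher, with a list median of 0.03. Examples are Cenpe, a kinetochore motor, with 65.3 and 54.5 normalized CPM in fusion against 109 in wild type (-0.88 ± 0.18, edgeR adjusted p = 0.00337), and Cenpf with 105 and 103 against 186 (-0.85 ± 0.18, edgeR adjusted p = 0.00572). Mxd1, an antagonist of Myc, was lower as well, with 71.0 and 74.6 against 173 (-1.24 ± 0.18, edgeR adjusted p = 0.000115), and Foxo1, a transcription factor that activates Cdkn1b, with 13.9 and 17.9 against 35.4 (-1.13 ± 0.26, edgeR adjusted p = 0.0104). Cdkn1c, the remaining Cip/Kip inhibitor, was higher, with 3.80 and 11.6 against 1.10 (2.84 ± 0.83, edgeR adjusted p = 0.0439), where 1.6% of all genes were called higher. Its levels were low and its fusion values far apart. Cdkn3, of the same list of other Cdk inhibitors, was lower, with 21.6 and 28.2 against 44.8 (-0.82 ± 0.23, edgeR adjusted p = 0.0314). Ccna2 and Cdc45 were also called lower, and Tfdp2 higher. The 2 clusters of this class differed in proportion between the genotypes, and their part in these calls was not tested.

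Outside that class 10 gene and class pairs of the lists were called. Their share lay below the pooled 2.29%, and below that of all genes in these other classes. Of all genes, 0.35% were called higher in erythroid progenitors. In mature neutrophils 3.28% were called higher and 5.69% lower. Called lower were 0.714% in the Irf8 Runx2 cluster, 0.964% in pre-B to mature B cells and 1.47% in stem, multipotent and lymphoid progenitors. E2f2, an activating E2F of the Rb family and E2F list (3 higher, 1 lower over 160 pairs), was higher in fusion erythroid progenitors, with 10.0 and 8.54 normalized CPM against 4.73 (0.97 ± 0.20, edgeR adjusted p = 0.0362), and in mature neutrophils, with 203 and 192 against 124 (0.68 ± 0.22, edgeR adjusted p = 0.0276). E2f3 and Myc, the growth regulator that acts upstream of D cyclins, were lower in the Irf8 Runx2 cluster: E2f3 had 19.5 and 31.1 in fusion against 45.0 (-0.82 ± 0.21, edgeR adjusted p = 0.0315) and Myc 59.8 and 70.5 against 105 (-0.69 ± 0.18, edgeR adjusted p = 0.0362). The S phase genes Rrm2 and Hells were lower in pre-B to mature B cells, Rrm2 with 23.8 and 32.1 against 64.9 (-1.22 ± 0.31, edgeR adjusted p = 0.0113). In mature neutrophils Hells and Sesn2 were lower and Kif23 higher, the last with 121 and 91.6 against 54.8 (0.96 ± 0.23, edgeR adjusted p = 0.000589). The p53 target Trp53inp1 was lower in stem, multipotent and lymphoid progenitors, with 23.1 and 18.5 against 40.7 (-0.98 ± 0.20, edgeR adjusted p = 0.0238). No gene of the list for D cyclin turnover and Cdk activation was called in its 111 pairs, where 2.31% of all pairs were.

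Over the 39 sums of 13 classes and 3 libraries, the genes with the pattern most like each member were named by Pearson's r of log2(CPM + 1) among 6312 genes with a mean of at least 20 CPM. Cdk4 had the closest, Paics at 0.985 and Hnrnpa1 at 0.981. Cdkn1b was nearest to Ypel3 at 0.942 and Kmt5b at 0.929, Cdkn2c to Esco2 at 0.914 and Ccnf at 0.886, and Cdkn2d to Fry at 0.9001 and Gsn at 0.899. Cdk6 was nearest to Ripor1 at 0.888 and Adgrg1 at 0.888, Cdkn1a to Cd48 at 0.886 and Rasa4 at 0.865, and Ccnd2 to Nt5c3b at 0.873 and Sox4 at 0.863. Ccnd3 was nearest to Lbr at 0.856 and to E2f2 at 0.840. Ccnd1 had the least close neighbours, Gria3 at 0.807 and Psme1 at 0.748. The sums share libraries and depth, so these are descriptions. Gria3, a glutamate receptor subunit gene, had 30.6 and 36.3 plain CPM in fusion granulocyte-monocyte progenitors against 97.0 in wild-type ones. Both fusion libraries lay below wild type for Gria3 in every class but pre-B to mature B cells.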

How the data were processed

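The deposited values are raw UMI counts per gene and barcode from droplet 3' libraries of version 3.1 chemistry, whose tools, per the submitters' processing notes, were Cell Ranger 5.0.1 and bcl2fastq 2.20.0.422, with build GRCm38. The file headers name Cell Ranger 5.0.0. Such counts do not tell overlapping or near-identical transcripts apart. Cells had to hold at least 1000 UMIs and 400 genes, and mitochondrial UMIs up to 10%. Doublets were removed per library with scrublet in scanpy 1.11.5 (expected rate 0.06), which marked 225 and 318 fusion barcodes and 194 wild-type barcodes. Cells of all libraries were clustered together without integration (2000 variable genes, 30 components, 15 neighbours, Leiden resolution 1, leidenalg 0.10.2). Clusters were named by the best marker list with at least 3 markers detected in 10% of cells. The stem and lymphoid progenitor lists were joined into a single class, as were the monocyte and conventional dendritic cell lists. A cluster was left unnamed where the next class scored within 0.1, or where another class had more markers among its leading genes.

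Counts were summed per library and class and tested with edgeR 4.0.16 (filterByExpr, TMM, quasi-likelihood, genotype as the only term, Benjamini-Hochberg over the genes of a class). With 2 libraries against 1 there was 1 residual degree of freedom, so the spread of wild type was taken to equal that of fusion. An exact permutation of 3 labellings cannot go below p = 0.333. Shares of cells have exact Clopper-Pearson 95% intervals for counting error only. DESeq2 1.42.0, other normalization, filters and clusterings were the alternatives. Scripts were tested on simulated data. The genes named are the 9 members, given in full where called and in the class with the largest change at a mean of at least 20 CPM with both fusion libraries on 1 side, and up to 4 called genes per pathway list and class. The members and lists were chosen with earlier results of these data known.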

Additional observations from a re-analysis of the deposited data

Results flagged for a closer look

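For 7 of the 9 genes the difference between fusion and wild type was itself different between classes, by the edgeR interaction test over 13 classes (adjusted p over 13588 genes, of which 17.1% passed). Ccnd2 was the clearest, at an adjusted p of 9.31e-16, with lower values in fusion mature neutrophils and higher values in fusion pro-B cells. Cdk6 had 4.90e-08, with log2 fold changes from -1.04 in pre-B to mature B cells to 0.59 in basophils and mast cells. Ccnd1 had 3.61e-06, with 0.04 in monocytes and dendritic cells beside the 5 classes called lower. Cdkn2c had 4.69e-06, with changes from -0.41 in basophils and mast cells to 2.39 in megakaryocytes, where wild type held 5 UMIs. Cdkn2d had 6.00e-05, from -0.75 in basophils and mast cells to 0.58 in the Irf8 Runx2 cluster. Cdkn1a had 0.00104, from -1.81 in immature neutrophils to 1.03 in T, NK and innate lymphoid cells. Ccnd3 had 0.00640, from -0.19 in pro-B cells to 0.75 in mature neutrophils, and did not pass without the 2 neutrophil classes (adjusted p = 0.19).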

How the results depend on the processing

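Single clusters left aside, none of the 13 called pairs changed sign in the alternatives that gave them a value. Leaving out either fusion library also kept every sign. How many were called did depend on the tool and the cells used. The 3 pairs higher in fusion became 5 with no gene filter, 5 with equal cells per library, 6 at Leiden resolution 2, 1 when clustered without called genes, 1 in cells with few cycle UMIs, 1 in cells with many, and 0 with DESeq2. The 10 pairs lower became 3 with DESeq2, 6 with the stricter cell filter and 2 in cells with few cycle UMIs, where 49 pairs could be tested. The 28 pathway list calls became 0 with DESeq2, 9 with equal cells, 17 with doublets kept, 14 when clustered without called genes, 10 in cells with few cycle UMIs and 6 in cells with many. The causes were not tested, beyond the fewer pairs or cells in some of these settings. Shares of all genes called under each setting are not given here. A change in these genes thus cannot be told from a change in all genes. The interaction test passed 7 genes, 8 with DESeq2 size factors and 7 without the neutrophil classes. Of all genes 2325 of 13588 passed, 2350 of 13588 with DESeq2 size factors and 1896 of 13138 without the neutrophil classes. Ccnd2 in mature neutrophils kept its call in all 12 alternatives with a test, while Cdkn2c in erythroid progenitors lost it in 9 of 12, Cdk6 in pre-B to mature B cells in 8 of 11 Ccnd1 in megakaryocytes in 6 of 11, Cdkn2d in basophils and mast cells in 4 of 12 and the other 8 pairs in 1 to 4. In single basophil clusters, chosen after seeing the data, Cdkn2d was at 0.0436 ± 0.28 on the log2 scale in 1 of the 2. That sign is opposite to the sign in the class, and in the other cluster the change was -0.93. Cdkn1a in T, NK and innate lymphoid cells was called only when clustered without called genes (1.71, edgeR adjusted p = 0.00104). On plain CPM, fold changes would move up by 0.16 in immature neutrophils, 0.11 in pre-B to mature B cells and 0.11 in basophils and mast cells. In the Irf8 Runx2 cluster the shares of cells with a Ccnd1 UMI were higher without thinning in each library. No paired analysis was possible because the labels give no replicate numbers and there is 1 wild-type library.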
